A study of Mus musculus with 16 samples.

Results

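Tgm2, Thbs1, Ebi3, Cd274, Cd80, Clec4a4 and Mmp9 were grouped by prior description. They count as genes of the active, CD11c-expressing state of intestinal eosinophils or as encoding factors that act on regulatory T cells. They were chosen by name, with their listing and direction in these data already known, so their values are a description and carry no test of the choice. All 7 were listed by the authors for CD11c-low eosinophils, out of 1340 listed genes, and 1 of them, Tgm2, was also listed for CD11c-high eosinophils, out of 172. The 2 tables together list 1413 genes.

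The RNA came from sorted mouse eosinophils of the duodenal lamina propria, the connective tissue layer below the epithelium. The 16 libraries form 4 groups of 4, namely CD11c-high and CD11c-low cells, each taken at zeitgeber time 3 (ZT3, titled AM) and at zeitgeber time 15 (ZT15, titled PM), where zeitgeber time counts hours from lights on. Each library was made from 1000 sorted cells by reverse transcription, amplification and a Nextera XT kit. The labels name no strain, age or genetic change, and do not say whether libraries of a group came from separate animals, so the errors may be technical.

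Eosinophils of the gut wall pass from a resident basal state to an active state with high surface CD11c, and active cells carry PD-L1 and CD80 on their surface. Regulatory T cells need transforming growth factor beta (TGF-beta), which is secreted in a latent complex and has to be released. Thrombospondin-1 (Thbs1), the gelatinase MMP9 (Mmp9) and tissue transglutaminase (Tgm2) have each been tied to that release. PD-L1 (Cd274) binds PD-1 on T cells, CD80 binds both CD28 and CTLA-4, and EBI3 is a shared subunit of the cytokines IL-27 and IL-35.

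Each table holds the authors' own comparison of ZT15 with ZT3 for 1 subset and no value of a single library, so a member's level at each time and its spread over libraries were not analysed here. Per gene the tables give the mean normalised count over the libraries, a log2 fold change shrunken towards 0 with its posterior standard deviation (written ± SD), and an s-value, which estimates what share of the genes down to that place in the list carry the wrong sign. Every listed s-value is under 0.05, so "rose" below means listed with a positive value, and how many genes were tested is unknown. A gene that is not listed may have been tested and not called, or not tested. With bulk RNA, a change in the mix of cells and a change of RNA per cell cannot be told apart.

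In CD11c-low eosinophils all 7 genes rose at ZT15 and none fell. Of all 1340 listed genes 52.2% rose, and since the members were chosen with these directions known, nothing is read from the comparison. The median of the 7 log2 fold changes in the authors' deposited table was 0.31, against a median of 0.36 among the 700 listed genes that rose. Tgm2 and Clec4a4 had the largest values of the 7, at about 1.4-fold, and lay above the median of the genes that rose. The other 5, between 1.14-fold and 1.26-fold, lay below that median.

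**Figure D1:**
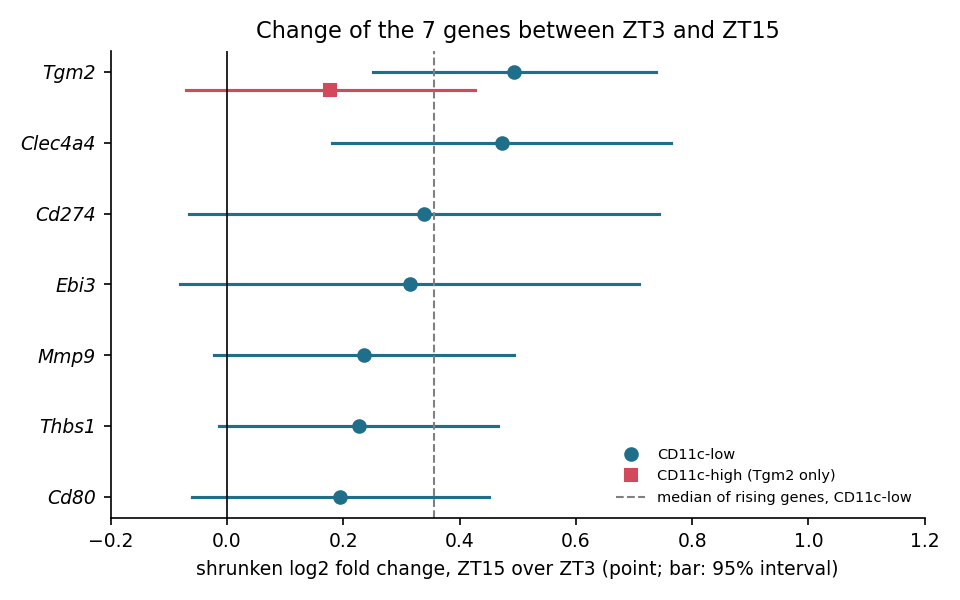
Shrunken log2 fold change of each gene at ZT15 over ZT3 (x axis), as points with 95% normal intervals built from the deposited SD. CD11c-low values are circles, and the square is Tgm2 in CD11c-high cells. All 8 points lie above 0, the intervals of Tgm2 and Clec4a4 in CD11c-low cells stay above 0, and the other 6 intervals include it; the dashed line is the median of the genes that rose in CD11c-low cells.

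Among the genes tied to TGF-beta release, Tgm2 (ENSMUSG00000037820.16) had the clearest change. It encodes tissue transglutaminase, which cross-links glutamine to lysine side chains and is the autoantigen of coeliac disease. Its mean normalised count in CD11c-low cells was 17888 in the authors' deposited table, with a log2 fold change of 0.49 ± 0.12 SD and an s-value of 3.39e-06. This is a fold of 1.41 with a 95% normal interval of 1.19 to 1.67, and it placed Tgm2 44th of 1340 by s-value. Of the 700 genes that rose, 149 had a larger log2 fold change than Tgm2.

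Thbs1 (ENSMUSG00000040152.9) encodes thrombospondin-1, a secreted matrix glycoprotein that binds latent TGF-beta. Its mean normalised count in CD11c-low cells was 4387 in the authors' deposited table, and its log2 fold change 0.23 ± 0.12 SD (s-value 0.0102). The fold was 1.17, with an interval of 0.991 to 1.38. Mmp9 (ENSMUSG00000017737.3), whose product is a secreted gelatin- and collagen-cleaving protease, lay beside it at 0.24 ± 0.13 SD (s-value 0.0115, mean normalised count 1896) in the authors' deposited table. The interval of its 1.18-fold rise ran from 0.985 to 1.41. The values of Thbs1 and Mmp9 differ by far less than either SD, and both lie in the lowest part of the rise seen in this table, with 92.7% and 89.3% of the genes that rose above them.

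The other genes fixed for TGF-beta activation and signalling were also looked up, and how many of them were tested is unknown. Of the 36 genes of that list, 3 were listed in CD11c-low cells, and they were Tgm2, Thbs1 and Mmp9 themselves. No TGF-beta gene, latent-complex gene, TGF-beta receptor or Smad gene was among them, and their levels were not analysed here. Of the 13 genes fixed as thrombospondin-1, its receptors and its partners, 5 were listed in CD11c-low cells, 2 higher, Thbs1 included, and 3 lower, in a table where 52.2% of genes rose. Cd47, a thrombospondin-1 receptor best known as the signal that restrains phagocytes, fell in CD11c-low cells by 0.51 ± 0.15 SD (s-value 3.73e-05), per the authors' deposited table. Calr, the gene of calreticulin, had -0.44 ± 0.25 SD and Itgb1, the integrin beta-1 chain, -0.42 ± 0.24 SD in the same authors' deposited table, while Itga4, an integrin alpha chain, had 0.21 ± 0.15 SD. The other 8 genes of the list were not listed there. In CD11c-high cells Sdc4, a syndecan, was the listed gene of that list (0.40 ± 0.33 SD in the authors' deposited table). Plaur, the urokinase receptor gene of the TGF-beta list, fell there by 0.38 ± 0.21 SD in the authors' deposited table.

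Cd274 and Cd80 encode membrane ligands of the B7 family. Cd274 (ENSMUSG00000016496.8), the gene of PD-L1, had the lowest mean normalised count of the 7, 305.9, and a log2 fold change of 0.34 ± 0.21 SD (s-value 0.0153) in CD11c-low cells, per the authors' deposited table. Its fold of 1.26 had an interval of 0.956 to 1.67. Cd80 (ENSMUSG00000075122.6) had the smallest change of the 7, 0.20 ± 0.13 SD (s-value 0.0245, mean normalised count 1710), in the authors' deposited table. That is a fold of 1.14 with an interval of 0.959 to 1.37, and 97.1% of the genes that rose did so by more. The difference between the 2 ligands' changes lies within the SD of Cd274 alone.

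Of the 12 genes fixed as B7 ligands and receptors, 5 were listed in CD11c-low cells, 4 higher and 1 lower, where 52.2% of listed genes rose. Beside Cd274 and Cd80, Cd86, whose product shares both receptors of CD80, had 0.48 ± 0.33 SD and a mean normalised count of 61.3, and Vsir, the gene of the checkpoint molecule VISTA, 0.20 ± 0.12 SD, in the authors' deposited table. Icosl, the ICOS ligand gene, had a mean normalised count of 38.7 and -0.40 ± 0.36 SD, per the authors' deposited table. Its s-value of 0.0481 stood close to the limit of the table, and its own false sign rate was 0.118, so its direction is the least certain of the 5.

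Of 20 genes fixed as controlling PD-L1, 11 were listed in CD11c-low cells, 7 higher, Cd274 included, and 4 lower. Of all 1340 listed genes there, 52.2% rose. The largest rise among them was that of Ifngr1, the ligand-binding chain of the interferon-gamma receptor, at 0.83 ± 0.15 SD (s-value 4.60e-09) in the authors' deposited table. Jak2, the kinase that this receptor uses, had 0.52 ± 0.23 SD, Irf1, the transcription factor that binds the Cd274 promoter, 0.32 ± 0.19 SD, and Stat3 0.34 ± 0.17 SD in the authors' deposited table. Jak1, the other kinase of this receptor, had 0.24 ± 0.18 SD in CD11c-low and 0.21 ± 0.14 SD in CD11c-high cells in the authors' deposited tables. The second receptor chain, Ifngr2, went the other way, at -0.39 ± 0.23 SD, as did Irf2 (-0.57 ± 0.26 SD) in the authors' deposited table. Cmtm6, whose product keeps PD-L1 on the cell surface, fell by 0.57 ± 0.24 SD, and Gsk3b, whose kinase marks PD-L1 for breakdown, by 0.62 ± 0.28 SD in the authors' deposited table. Interferon-gamma receptor chains and PD-L1 regulators were therefore listed in both directions.

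**Figure D2:**
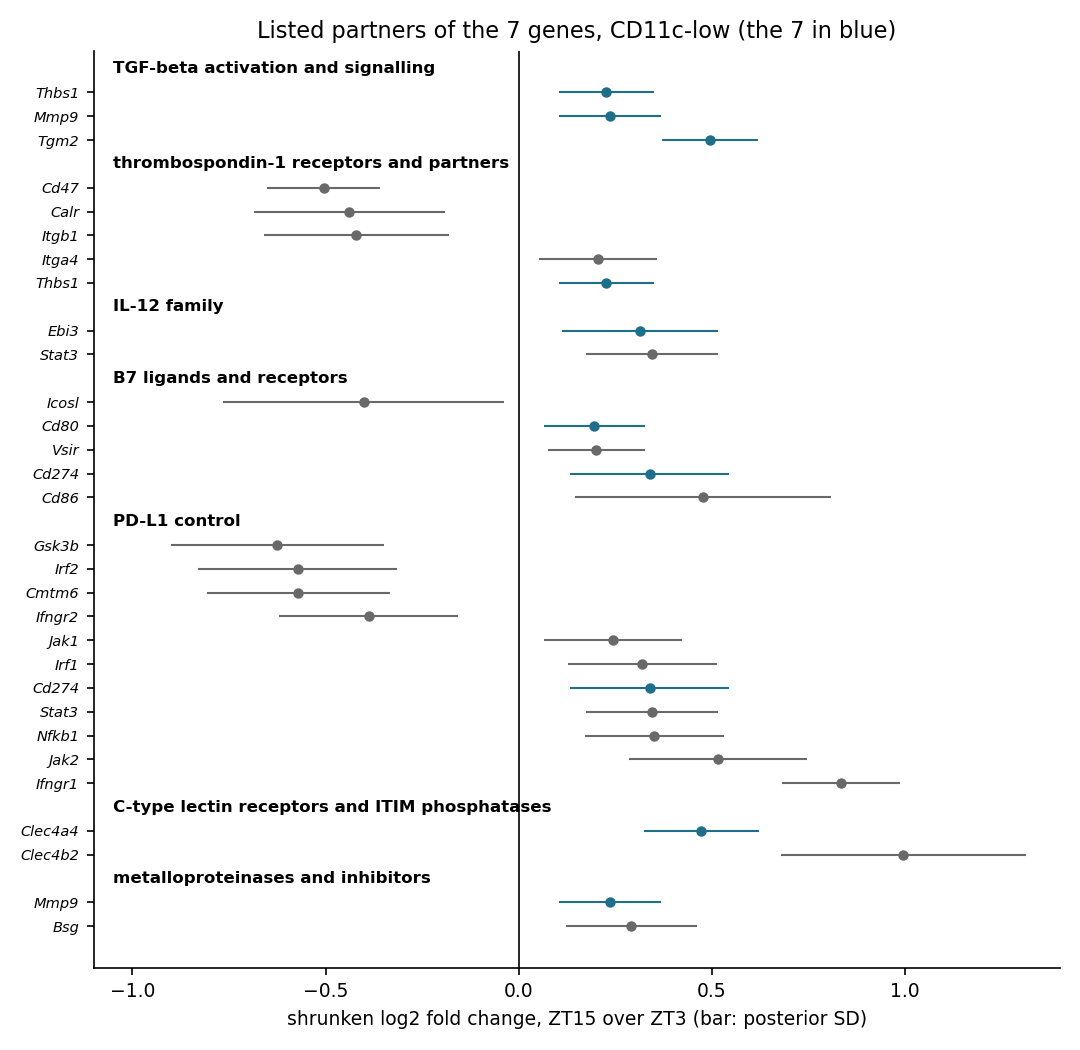
Shrunken log2 fold change at ZT15 over ZT3 in CD11c-low eosinophils (x axis, bars are 1 posterior SD) for every listed gene of 7 lists, with the genes under study in blue and the others in grey. All blue points lie right of 0, whereas Cd47, Calr and Itgb1 in the thrombospondin-1 list, Icosl in the B7 list and Gsk3b, Irf2, Cmtm6 and Ifngr2 in the PD-L1 list lie left of it.

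Ebi3 (ENSMUSG00000003206.8) is the cytokine gene of the set. In CD11c-low cells its mean normalised count was 351.0 in the authors' deposited table, with a log2 fold change of 0.31 ± 0.20 SD (s-value 0.0192). Its fold of 1.24 had an interval of 0.946 to 1.63. Of the 12 genes fixed for the IL-12 family, its receptors and their STAT proteins, Ebi3 and Stat3 were listed. Both rose, where 52.2% of listed genes did. Neither partner subunit of EBI3, encoded by Il27 and Il12a, was listed in either table, so no value bears on which cytokine Ebi3 could contribute to.

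Clec4a4 (ENSMUSG00000059639.3) encodes DCIR2, a C-type lectin receptor with an inhibitory signalling motif. Its mean normalised count in CD11c-low cells was 1308 per the authors' deposited table, and its log2 fold change 0.47 ± 0.15 SD (s-value 0.000120). The fold was 1.39, with an interval of 1.13 to 1.70, and Clec4a4 stood 103rd of 1340 by s-value. Of 16 genes fixed as related lectin receptors and inhibitory phosphatases, 1 other was listed. This was Clec4b2, a receptor gene of the same family, with a mean normalised count of 202.9 and 1.00 ± 0.32 SD (s-value 0.000101) in the authors' deposited table. Clec4a and Clec4b genes are close copies, and no source used here says how shared reads were counted, so both values are uncertain in that respect. For Mmp9, the list of 21 metalloproteinases and inhibitors added Bsg, an inducer of matrix proteases (0.29 ± 0.17 SD in the authors' deposited table), and no inhibitor of metalloproteinases was listed. For Tgm2, the list of 15 transglutaminases and partners added Itgb1 alone.

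Since an s-value describes all genes down to its place, a false sign rate for every single gene was also worked out, from the step between neighbouring s-values. It was 2.05e-05 for Tgm2, 0.000464 for Clec4a4, 0.0303 for Thbs1, 0.0342 for Mmp9, 0.0428 for Cd274, 0.0523 for Ebi3 and 0.0651 for Cd80. The rates add up to 0.225 wrong signs expected among the 7. All 7 had already passed the s-value limit and were chosen with this known, so the sum is no test of the set. At an s-value under 0.01, which 38.7% of the listed genes reached, Tgm2 and Clec4a4 were left, 2 of 7. With a false sign rate of the gene itself under 0.05, which 52.7% reached, 5 of 7 were left, without Ebi3 and Cd80. Tgm2 and Clec4a4 therefore rest on much firmer signs than the other 5.

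Levels can be set against each other only per length, so the mean normalised count was divided by the median length of a gene's protein-coding transcripts. By count per kilobase Tgm2 was the most abundant of the 7 in CD11c-low cells at 4975, which was 2.95 times the next, Clec4a4, at 1686. Mmp9 (1056), Cd80 (1005) and Thbs1 (750.2) followed, then Ebi3 (304.2) and, lowest, Cd274 (84.5). Tgm2 alone made up 50.4% of the summed count per kilobase of the 7. The median of all listed genes was 177.0, so Cd274 was the 1 member below it. With the longest transcript in place of the median length, Mmp9 fell to 597.2 and Cd80 to 538.9, both below Thbs1, so the order of these 3 is not settled. No spread over libraries can be given for these levels, and whether other neighbours differ beyond it was not tested.

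**Figure D3:**
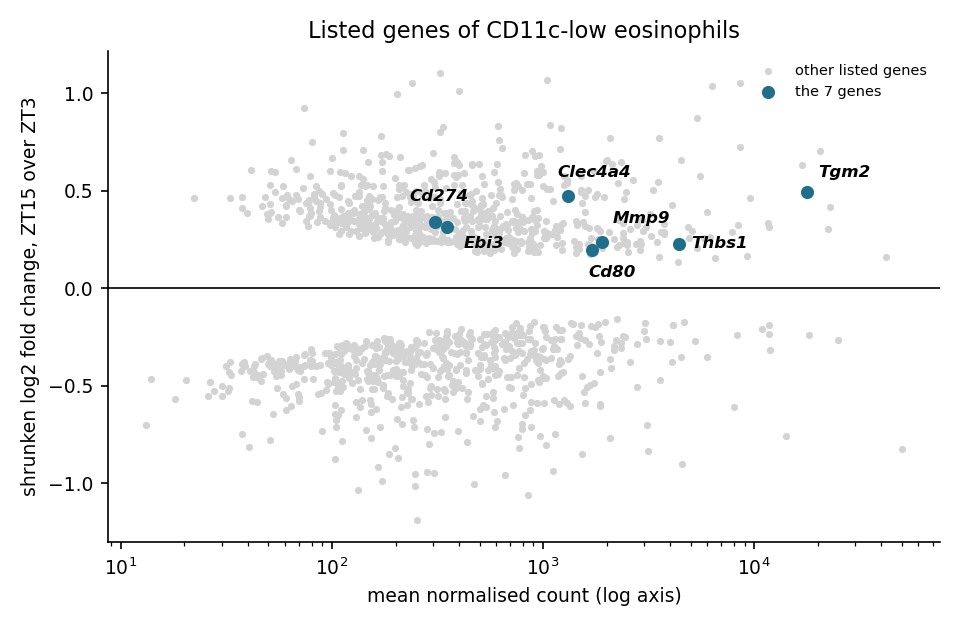
Shrunken log2 fold change at ZT15 over ZT3 (y axis) against mean normalised count (x axis, log scale) for listed genes of CD11c-low eosinophils, with the 7 genes in blue; 19 genes with a change of 2 or more in size are left off. Cd80, Mmp9 and Thbs1 lie near the lower edge of the genes that rose at their counts, and Tgm2 and Clec4a4 well above it.

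In CD11c-high eosinophils Tgm2 was the 1 member listed, and 6 were not. Of the 172 listed genes 54.1% rose. Its mean normalised count was 7729 in the authors' deposited table for these cells, with a log2 fold change of 0.18 ± 0.13 SD (s-value 0.0368). The fold was 1.13 with an interval of 0.952 to 1.34, and the false sign rate of Tgm2 itself was 0.0682. Of the 93 genes that rose in CD11c-high cells, 87 had a larger log2 fold change. Of the genes listed in CD11c-low cells, 7.39% were also listed in CD11c-high cells, and 1 of 7 members was. Not being listed does not show that the other 6 were unchanged in CD11c-high cells.

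The change of Tgm2 was compared between the subsets. The log2 fold change in CD11c-high minus that in CD11c-low cells was -0.32 ± 0.18 SD, with a 95% interval of -0.66 to 0.03. It did not pass in a two-sided normal test adjusted over the 99 genes listed in both tables (Benjamini-Hochberg adjusted p = 0.572), which 3.03% of those genes passed. Those that passed included an antibody segment with fitted values too large to be read as folds. The test takes the subsets as independent and the deposited values are shrunken by an unknown amount in each table. No conclusion is drawn from the test, since Tgm2 was chosen with its listing and direction already known. All 99 genes had also passed the s-value limit in both tables beforehand. Over the 97 of these genes that are not antibody segments, the median ratio of the size of change in CD11c-high to that in CD11c-low cells was 0.677, and for Tgm2 the ratio was 0.360.

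The mean normalised count of Tgm2 was 2.31 times as high in the CD11c-low as in the CD11c-high authors' deposited table. The tables were normalised separately, and the median of this ratio over the 97 genes was 1.37, with a range of 0.723 to 3.09. Only 2 of the 97 genes had a larger ratio than Tgm2. Relative to the median shared gene, the mean normalised count of Tgm2 was thus 1.69 times as high in CD11c-low cells, a difference for which the tables hold no error. Tgm2 was grouped here with the active, CD11c-expressing state, and this relative count was the higher in CD11c-low cells. It is scaled only to genes listed for both subsets, so whether the level of Tgm2 differs between the subsets was not tested. In both tables Tgm2 was among the most abundant listed transcripts, 8th of 1340 and 4th of 172 by mean normalised count, which is not scaled by length. Per kilobase it stood 26th of 1269 genes with a transcript length in CD11c-low and 9th of 153 in CD11c-high cells.

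**Figure D4:**
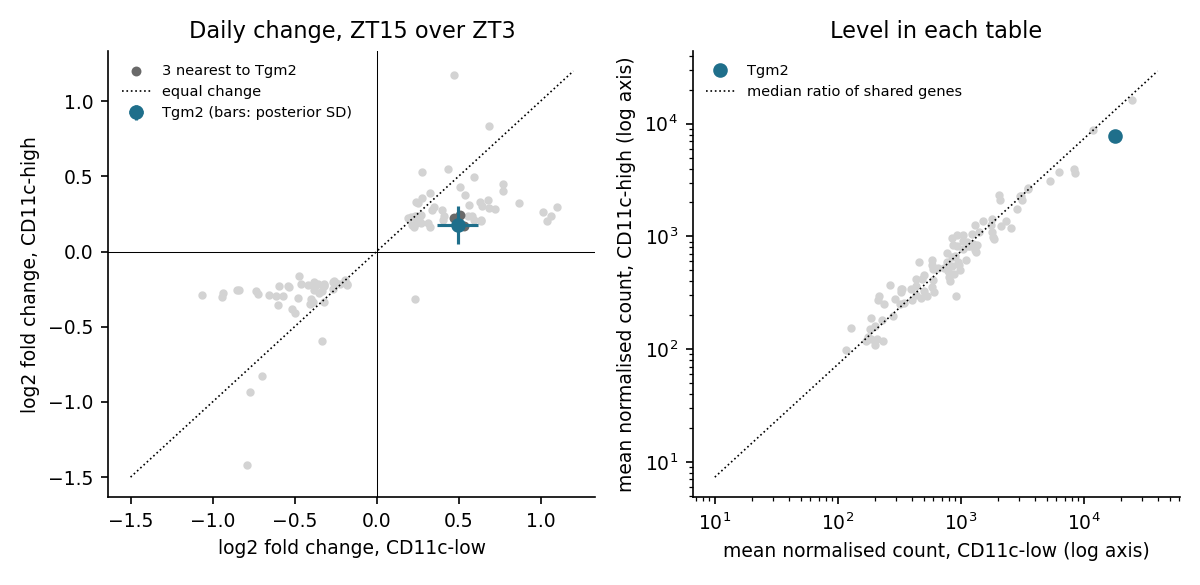
Left, log2 fold change at ZT15 over ZT3 in CD11c-low (x axis) against CD11c-high cells (y axis) for the 97 genes listed in both tables, antibody segments left out, with Tgm2 in blue (bars, 1 posterior SD), its 3 nearest genes in dark grey and the line of equal change dotted. Right, mean normalised counts of the same genes (log axes) with the median ratio dotted; Tgm2 lies below the dotted line in both panels.

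By the pair of log2 fold changes, the genes nearest to Tgm2 among those listed in both tables were Ccr1, Stx11 and Maea. Ccr1, a chemokine receptor gene, had 0.53 ± 0.20 SD in CD11c-low and 0.17 ± 0.13 SD in CD11c-high cells in the authors' deposited tables, a Euclidean distance of 0.0371 from Tgm2. Stx11, a syntaxin gene of granule release, had 0.47 ± 0.14 SD and 0.23 ± 0.17 SD in the authors' deposited tables (distance 0.0536). Maea, part of a ubiquitin ligase complex, had 0.51 ± 0.15 SD and 0.24 ± 0.16 SD in the authors' deposited tables (distance 0.0651). Likeness here rests on 2 comparisons and on distances smaller than any of the SDs.

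The promoter table from RefSeq held 3 of the 7 genes, Ebi3, Cd274 and Cd80, on build GRCm38.p6, which is not the build named in the processing notes. The 250 bases before the start site are shown for Ebi3 and Cd274, the cytokine gene and the checkpoint gene of the set, because a searched motif was found there, with the match in capitals. The Ebi3 window is chr17:55952373-55952622 on the plus strand, with a match to the NF-kB motif 44 to 35 bases before the start. The Cd274 window is chr19:29367188-29367437 on the plus strand, with matches to the GATA motif AGATAA at 108 to 103 and at 12 to 7 bases before the annotated start, and on the minus strand a match to AANNGAAA, the core motif of interferon regulatory factors, at 175 to 168.
Ebi3: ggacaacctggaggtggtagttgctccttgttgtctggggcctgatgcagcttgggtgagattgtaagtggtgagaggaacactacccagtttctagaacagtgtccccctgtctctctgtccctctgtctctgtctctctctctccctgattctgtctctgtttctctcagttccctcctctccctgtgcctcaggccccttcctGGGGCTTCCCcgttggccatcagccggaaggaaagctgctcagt
Cd274: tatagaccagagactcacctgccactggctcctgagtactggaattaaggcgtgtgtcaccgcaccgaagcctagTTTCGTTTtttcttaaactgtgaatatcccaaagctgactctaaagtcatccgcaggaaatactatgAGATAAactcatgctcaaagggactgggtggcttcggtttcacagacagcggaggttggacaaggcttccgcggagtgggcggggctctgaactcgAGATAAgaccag

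Both strands of each window were searched for 10 motifs and for a longer spelling of 1 of them. A match is a description of letters, not of binding. The NF-kB motif was found in 7.25% of the 32851 RefSeq promoter windows of this length, AGATAA in 9.99% and AANNGAAA in 21.3%. A longer spelling of the interferon regulatory factor motif, tried first, had no match in the 3 windows (2.98% of all windows), so that choice was made after seeing the data. No match in these 3 windows was found for the E-box CACGTG of clock factors (6.02% of all windows), the cAMP response element TGACGTCA (1.55%) or its half-site TGACG (17.8%), which the full element contains. Nor was one found for TGACTCA of AP-1 (4.46%), TTCNNNGAA of STAT proteins (7.02%), GAGGAAGT of ETS factors (2.44%) or TATAAA (12.4%). Of the 20 genes fixed as NF-kB factors, 4 were listed in CD11c-low cells, 2 higher and 2 lower, where 52.2% of listed genes rose. Nfkb1 had 0.35 ± 0.18 SD and Traf3 0.37 ± 0.22 SD, whereas Rel had -0.51 ± 0.21 SD and Bcl3 -0.44 ± 0.32 SD in the authors' deposited table. In CD11c-high cells Nfkbie, an inhibitor of NF-kB, was the 1 listed gene of that list, at 0.27 ± 0.24 SD in the authors' deposited table.

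The wider lists place the members among related genes. Of 19 genes fixed for the active eosinophil state, 10 were listed in CD11c-low cells, 9 higher and 1 lower. Of all listed genes there, 52.2% rose. Outside the members the listed genes were Ifngr1, Hilpda (0.51 ± 0.20 SD in the authors' deposited table), Nfkb1 and, lower, Icosl. Itgax, which encodes CD11c itself, was listed in neither table. Of 31 genes fixed as acting on regulatory T cells, 6 were listed there, 5 higher and 1 lower, with Entpd1, the ectonucleotidase CD39, at 0.22 ± 0.14 SD in the authors' deposited table as the 1 riser outside the members. These lists overlap with each other and with the members and were drawn up with earlier results known, so their counts are no independent evidence of direction.

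Of 14 eosinophil markers 5 were listed in CD11c-low cells, where 52.2% of all listed genes rose. Itgam (0.57 ± 0.17 SD), Csf2rb (0.33 ± 0.16 SD), Alox15 (0.26 ± 0.14 SD) and Siglecf (0.23 ± 0.13 SD) rose and Adgre1 fell by 0.29 ± 0.14 SD in the authors' deposited table. Per kilobase, Siglecf stood at 701.0 and Alox15 at 2029, near the levels of Thbs1 and Clec4a4. Adgre1 stood at 3028, Csf2rb at 1143 and Itgam at 299.7. Some markers of other cells were listed with the members in CD11c-low cells. These were Cd68 of 12 macrophage genes (0.52 ± 0.30 SD), Cd74 of 12 dendritic cell genes (-0.49 ± 0.33 SD), Bank1 (0.32 ± 0.15 SD) and Ighm (0.24 ± 0.20 SD) of 10 B cell genes and Hdc of 10 mast cell and basophil genes (0.58 ± 0.20 SD) in the authors' deposited table. To these come Krt18 of 10 epithelial and stromal genes (-0.35 ± 0.24 SD) and Gzma of 13 T and NK cell genes in the authors' deposited table. Gzma was listed as higher with a mean normalised count of 30.4 and a fitted value too large to be read as a fold. None of 11 neutrophil markers was listed. Per kilobase in CD11c-low cells, Cd74 stood at 652.9, Bank1 at 402.0, Hdc at 390.5, Cd68 at 127.7, Krt18 at 110.8 and Gzma at 32.4. Ighm had no transcript length. Cd74 was thus near Siglecf, and Bank1 and Hdc above Itgam, so these levels are no test of cell type. In CD11c-high cells, where Tgm2 had 0.18 ± 0.13 SD, the listed markers of other cells were Hdc (0.24 ± 0.19 SD) and, from the B cell list, Xbp1 (0.41 ± 0.35 SD) in the authors' deposited table, and no eosinophil marker was listed. Dendritic cells and macrophages also express several of the 7 genes, and the part of other cells in the members' changes was not tested.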

How the data were processed

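RNA-seq of 16 libraries was used as the authors' 2 deposited tables. STAR 2.7.10b, DESeq2 1.38.3 and the build GRCm39 appear in the submitters' processing notes, with no role stated. No source used here gives the counting, annotation or shrinkage method. Per the file headers, the tables hold a mean normalised count (a signal averaged over libraries by the authors), a log2 fold change with its SD, and an s-value, which the authors deposited in place of a p-value. Direction (PM over AM) was read from the tables' names. Depth per library is unknown, and intervals cover no error beyond that held in the deposited SD.

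Members and gene lists were chosen with earlier results of these data known; the named genes are the members, every listed gene of the lists, and the 3 genes nearest to each member listed in both tables. Intervals are the log2 fold change with a 95% normal interval. The recovery of false sign rates and the test of differences were tested on simulated data. Transcript lengths came from GENCODE M21, matched on gene identifier for 1269 of 1340 and 153 of 172 genes. Python 3.11.15, pandas 2.3.3, NumPy 2.4.6, SciPy 1.17.1 and matplotlib 3.10.9 were used.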

Additional observations from a re-analysis of the deposited data

How the results depend on the processing

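Of the 7 genes higher in CD11c-low cells, 2 were left at an s-value under 0.01 and 2 at one under 0.005, and 4 had a log2 fold change of at least 0.3. In CD11c-high cells the count of 1 became 0 under each of these settings and with a false sign rate of the gene itself under 0.05; the tables hold no p-values from which a count at an unadjusted threshold could be made. These settings only narrow the call, so no deposited value changed and no direction reversed. A mean normalised count of at least 50 or 500 left 7 and 5 genes in CD11c-low cells and 1 in CD11c-high cells. Of all genes listed in CD11c-low cells, 38.7% had an s-value under 0.01 and 52.7% a false sign rate under 0.05. Shares of all listed genes for the other settings, and for CD11c-high cells, were not worked out. Nothing is therefore read from these counts of members. The difference of Tgm2 between subsets had a Benjamini-Hochberg adjusted p between 0.0902 and 1.00 in the 3 alternatives, against 0.572, and stayed negative in each. It was -0.23 after rescaling of the CD11c-high values. The lowest adjusted p, 0.0902, came from assuming an error correlation of 0.5 between the subsets. Each of these adjusted p values rests on genes already listed in both tables, so no conclusion is drawn from them. Library titles carry the same numbers in both subsets, and whether these mark a shared source is not stated. With the longest transcripts, 4 of 7 genes kept their place in the order of levels per kilobase. No paired analysis was possible because the tables hold no value of a single library, and for the same reason no library could be left out in turn.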
